A study of Homo sapiens with 54 samples.

Results

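TSC22D3, TSC22D1, TSC22D2 and TSC22D4, the members of the TSC22 family, were followed through 3 RNA-seq experiments in BT549 cells, a mesenchymal line established from a triple-negative breast cancer. The 4 genes were taken by symbol from the 26517 genes of the count tables, and all 4 passed the filter on low counts in each experiment. Each of the 54 libraries gave whole-number read counts per gene, in 18 groups of 3. Levels are given as CPM, read counts scaled by the normalised library total, and a change as a log2 fold change (log2FC) with its standard error (SE). A gene was called changed at an adjusted p under 0.05 in edgeR's quasi-likelihood test over all genes of its experiment. The test had no term for the replicate number. Calls on the members that were gained with such a term are given in the last part.

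All cells were labelled wild type, and the agent shared by the 3 experiments was dexamethasone (DEX), a synthetic glucocorticoid, at 500 nM. The GATA6 experiment used a pooled knockdown of the transcription factor GATA6 (siGATA6) beside a control siRNA (siCtl), each for 72 h, with vehicle or with DEX for 2 h. No time is recorded for the vehicle. In the BRM014 experiment, the drug was BRM014 at 10 µM, which blocks BRM and BRG1, the ATPases of the chromatin remodeller SWI/SNF, and DMSO was its vehicle, each with or without DEX, for a labelled time of 4 h or 24 h. The growth and treatment protocol names shorter times, with no 24 h treatment, so the 24 h groups rest on the sample labels alone. The AP-1 experiment compared siCtl with knockdown of FRA1 (siFRA1, gene FOSL1) and of JUN (siJUN), with vehicle or DEX for a time not given in the sources used here. Each experiment was analysed as a separate set, and levels are not compared between experiments.

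TSC22 proteins share a short domain with a leucine zipper, through which they pair with themselves and with each other. TSC22D3 encodes GILZ, the glucocorticoid-induced leucine zipper, which binds NF-kappa B and AP-1 proteins and is known as a mediator of the anti-inflammatory action of glucocorticoids. Its gene is a textbook target of the glucocorticoid receptor and of FOXO factors. TSC22D1, the founding member, was found as a transcript stimulated by TGF-beta. Long forms of TSC22D1, TSC22D2 and TSC22D4 bind the pseudokinase NRBP1 and take part in the control of cell volume through the WNK kinases.

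Library totals lay between 10186607 and 30530736 counts. The targeted genes went with the labels: GATA6 had a log2FC of -3.04 in siGATA6 against siCtl cells with vehicle, FOSL1 of -1.88 in siFRA1 cells and JUN of -1.50 in siJUN cells. The mesenchymal markers VIM, FN1, CDH2 and SPARC lay at 166.1 CPM or more in every library, and ESR1 and PGR at 0.163 CPM or less. ERBB2, whose protein is not overexpressed in triple-negative tumours, lay between 51.8 and 92.1 CPM. Of the markers of leukocytes and endothelium, PECAM1, CDH5, CD3E and CD79A were at 0 in at least 1 library and did not exceed 0.623 CPM, and PTPRC reached 2.16 CPM. In bulk RNA, a lower level in every cell cannot be told apart from a smaller share of cells that carry the transcript.

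TSC22D3 (ENSG00000157514.16) spans X:107713221-107777342 on the minus strand of GRCh38, where GENCODE lists 17 transcripts with 17 different starts. The count tables hold 1 value per gene, so the values below sum over these starts. RefSeq (GRCh38.p14) gives 4 windows of 300 bases around its starts, each from 250 bases before to 50 after the start. No window held the palindromic glucocorticoid receptor motif GNACANNNTGTNC, which 0.39% of all 35116 RefSeq windows held on either strand. The FOXO motif GTAAACA, present in 3.42% of all windows, occurred in 1 of the 4, on the opposite strand, with its first base at -147 from the start. That window and the 1 that lies farthest upstream are shown because FOXO genes and AP-1 genes are followed below, with the match in capitals.
TSC22D3 X:107717013-107717312, minus strand: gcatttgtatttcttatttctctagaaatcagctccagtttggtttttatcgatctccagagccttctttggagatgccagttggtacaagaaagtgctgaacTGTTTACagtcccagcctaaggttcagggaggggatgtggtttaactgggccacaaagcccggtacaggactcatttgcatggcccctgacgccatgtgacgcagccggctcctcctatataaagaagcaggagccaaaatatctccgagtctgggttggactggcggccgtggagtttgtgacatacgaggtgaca
TSC22D3 X:107775939-107776238, minus strand: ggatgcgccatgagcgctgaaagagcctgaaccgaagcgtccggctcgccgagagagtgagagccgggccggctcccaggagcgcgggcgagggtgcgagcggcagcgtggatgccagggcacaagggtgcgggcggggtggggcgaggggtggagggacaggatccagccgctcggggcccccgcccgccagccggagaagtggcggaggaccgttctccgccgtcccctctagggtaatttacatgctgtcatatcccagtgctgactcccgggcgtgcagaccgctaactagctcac
The second window held no match to the receptor, FOXO, AP-1 (TGANTCA) or GATA motifs, and a match or its lack says nothing of whether a factor binds there.

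The GATA6 experiment asked how DEX acts within 2 h and what loss of GATA6 changes. With DEX, 4 of 4 members were higher in siCtl cells and 4 of 4 in siGATA6 cells, where 15.9% and 15.9% of the 13897 genes tested were called. TSC22D3 lay at 3.00, 3.66 and 3.18 CPM in the siCtl libraries with vehicle and at 162.2, 160.4 and 147.1 CPM with DEX. The groups were far apart, with no DEX library near a vehicle library. The rise was a log2FC of 5.58 (SE 0.0792, adjusted p = 4.96e-23). In siGATA6 cells, TSC22D3 lay at 1.42, 1.25 and 1.07 CPM with vehicle and at 109.6, 113.3 and 104.1 CPM with DEX, a log2FC of 6.46 (SE 0.0901, adjusted p = 3.45e-23).

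Without DEX, siGATA6 lowered TSC22D3 and raised TSC22D2, so that 1 member was higher and 1 lower against 23.7% of all genes called. The siGATA6 libraries with vehicle all lay below the siCtl libraries, with a mean of 1.24 ± 0.174 against 3.28 ± 0.339 CPM (SD, n = 3 each) and a log2FC of -1.40 (SE 0.149, adjusted p = 3.75e-07). With DEX the deficit was smaller as a ratio, 109.0 ± 4.598 against 156.6 ± 8.27 CPM (log2FC -0.52, SE 0.0525, adjusted p = 1.62e-07), with no overlap between the groups. There, 1 member was higher and 1 lower against 22.6% of all genes. The DEX response in siGATA6 cells therefore exceeded that in siCtl cells on the ratio scale by 0.88 (SE 0.159, adjusted p = 0.00919), and TSC22D3 was the 1 member called of 4 in this interaction, in which 0.338% of all genes were called. In CPM the order was the other way, a rise of 107.8 CPM in siGATA6 and of 153.3 CPM in siCtl cells. Without the third siGATA6 library with vehicle, the lowest at 1.07 CPM, the interaction was 0.78 (adjusted p = 0.0635). The vehicle libraries held few TSC22D3 reads, 39, 54 and 99 in siCtl and 26, 31 and 25 in siGATA6 cells.

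**Figure D1:**
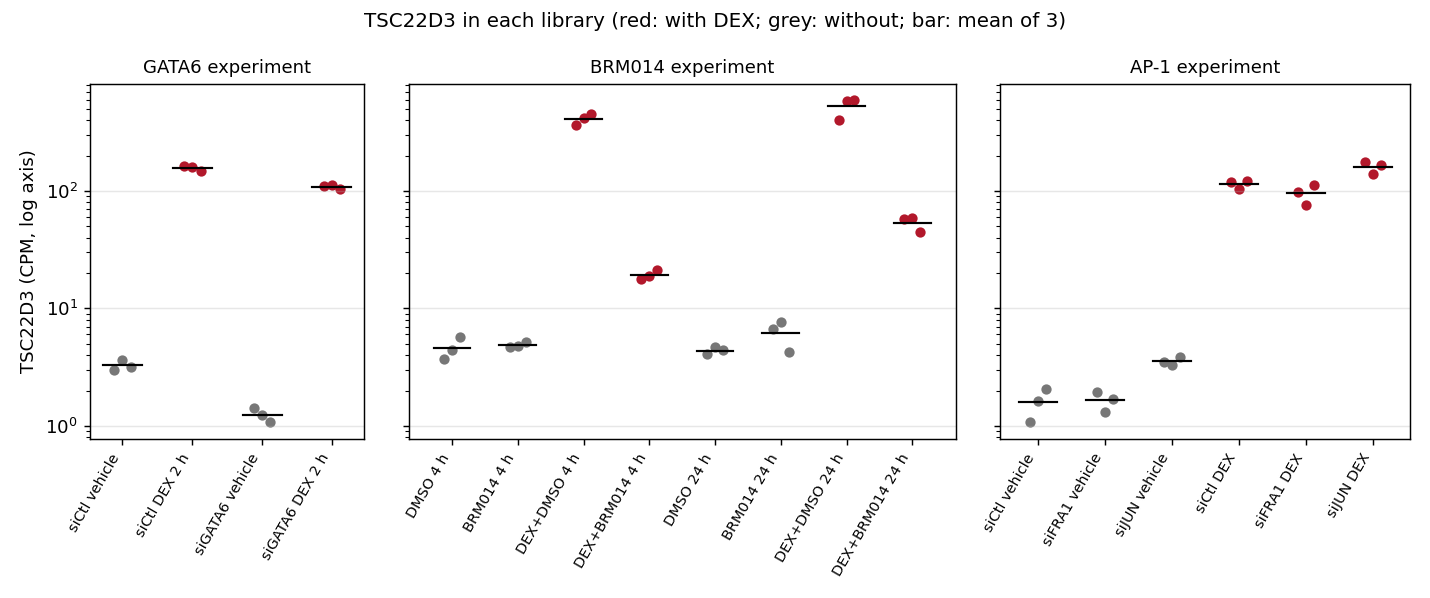
TSC22D3 in each of the 54 libraries, in CPM on a log axis, by group within the 3 experiments; points are libraries, red with DEX and grey without, and bars are means of 3. Every library with DEX lies above every library without it in its experiment, and the DEX libraries with BRM014 at 4 h, from 17.98 to 21.43 CPM, lie closest to the untreated ones.

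The BRM014 experiment asked how far these responses depend on the SWI/SNF ATPases. DEX for 4 h raised 4 of 4 members in DMSO cells, against 12.5% of 14547 genes tested, and 3 of 4 in BRM014 cells, against 6.12%. TSC22D3 lay at 3.73, 4.45 and 5.70 CPM with DMSO and at 366.5, 419.0 and 450.5 CPM with DEX and DMSO (log2FC 6.48, SE 0.222, adjusted p = 4.39e-14). With BRM014 in place of DMSO it lay at 4.66, 4.78 and 5.17 CPM without DEX, within the range of the DMSO libraries (log2FC 0.08, SE 0.197, adjusted p = 0.850). With DEX and BRM014 it lay at 17.98, 18.85 and 21.43 CPM. All 3 libraries stood above the untreated ones and far below the libraries with DEX and DMSO.

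The DEX response of TSC22D3 at 4 h was thus still present with BRM014 (log2FC 1.99, SE 0.190, adjusted p = 3.69e-07) but smaller, and the rise in CPM was 3.57% of that in DMSO cells. No member was called for BRM014 without DEX at 4 h, where 8.68% of all genes were. With DEX, TSC22D3 and TSC22D4 were lower and none was higher, 2 of 4 against 12.8%. The interaction of BRM014 with DEX was -4.49 for TSC22D3 (SE 0.271, adjusted p = 6.28e-09), and the same 2 members were called of 4 against 2.29% of all genes. Over all genes, replicates 2 and 3 with DEX and BRM014 deviated from their group mean much as the 24 h libraries did. The values are given in the last part, and the source was not tested.

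At 24 h the levels of TSC22D3 were 4.10, 4.66 and 4.39 CPM with DMSO and 404.1, 588.3 and 597.5 CPM with DEX (log2FC 6.92, SE 0.225, adjusted p = 1.62e-14). The first of the DEX libraries was lower than the others and overlapped the 4 h libraries with DEX. The libraries with BRM014 gave 6.68, 7.63 and 4.29 CPM without DEX and 57.21, 58.65 and 44.85 CPM with DEX (log2FC 3.11, SE 0.192, adjusted p = 5.72e-10). DEX raised 2 of 4 members in DMSO cells, against 25.6% of all genes, and 2 of 4 in BRM014 cells, against 13.8%, in both cases TSC22D3 and TSC22D4.

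BRM014 at 24 h left 9.01% of the DEX rise of TSC22D3 in CPM, and its interaction with DEX was -3.81 (SE 0.264, adjusted p = 1.51e-08), the 1 member called of 4 against 6.54% of all genes. With DEX, TSC22D3 was also the 1 member lower with BRM014 (log2FC -3.31, SE 0.187, adjusted p = 4.43e-11) against 35.5% of all genes. Without 1 library in that comparison, TSC22D1 also passed as lower (-0.29, adjusted p = 0.0172 without the first library with DEX and DMSO, and -0.29, adjusted p = 0.0225 without the second with DEX and BRM014), and TSC22D4 as higher (0.37, adjusted p = 0.0185 without the second with DEX and DMSO). The interaction of TSC22D2 was 0.39 (SE 0.123, adjusted p = 0.0666), and 0.44 (adjusted p = 0.0460) without the third library with DEX and BRM014. Without DEX, TSC22D1 and TSC22D2 were lower with BRM014, 2 of 4 against 31.5%. There TSC22D3 gave 6.20 ± 1.72 against 4.38 ± 0.282 CPM (log2FC 0.50, SE 0.192, adjusted p = 0.0527), with overlapping libraries. It passed the threshold without the third BRM014 library (0.70, adjusted p = 0.00534), and also with a term for the replicate number. Of the 4 mesenchymal markers, 1 was higher and 1 lower in that comparison, and the lower was SPARC at -2.06; their part in these values was not tested.

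The difference in the DEX response of TSC22D3 between 4 h and 24 h in DMSO cells did not pass the test (0.44, SE 0.261, adjusted p = 0.368), nor did that in the effect of BRM014 without DEX (0.42, SE 0.275, adjusted p = 0.425). TSC22D2 was the 1 member called in each of these time interactions, against 8.9% and 9.44% of all genes. Between the DMSO groups at 24 h and 4 h no member and 0% of genes were called by edgeR. In that comparison 174 genes had an unadjusted p under 0.05, and DESeq2 called 0.

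The AP-1 experiment asked what FRA1 and JUN, both subunits of AP-1, contribute. DEX raised 3 of 4 members, all but TSC22D4, in siCtl cells (5.51% of 13658 genes tested were called), in siFRA1 cells (4.93%) and in siJUN cells (5.69%). TSC22D3 lay at 1.09, 1.64 and 2.08 CPM in siCtl cells with vehicle and at 120.0, 104.2 and 122.7 CPM with DEX (log2FC 6.16, SE 0.189, adjusted p = 1.47e-14). In siFRA1 cells the vehicle libraries gave 1.96, 1.30 and 1.68 CPM and the DEX libraries 97.7, 76.1 and 113.2 CPM (log2FC 5.85, SE 0.188, adjusted p = 3.52e-14). In siJUN cells it lay at 3.51, 3.27 and 3.85 CPM with vehicle and at 175.4, 140.0 and 167.4 CPM with DEX (log2FC 5.50, SE 0.168, adjusted p = 1.31e-14). The siFRA1 libraries overlapped the siCtl libraries with vehicle and with DEX, whereas the siJUN libraries stood above both other groups.

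siFRA1 and siJUN were compared with the same siCtl libraries. DEX itself lowered FOSL1 in siCtl cells of this experiment (log2FC -1.52). Against siCtl, siFRA1 gave TSC22D3 a log2FC of 0.03 (SE 0.318, adjusted p = 0.973) with vehicle and of -0.27 (SE 0.121, adjusted p = 0.145) with DEX. Without the third siFRA1 library with DEX, the latter was -0.41 (adjusted p = 0.0268). The comparison with DEX also passed with a term for the replicate number. At each replicate number with DEX, siFRA1 was lower than siCtl, but nothing in the labels ties same-numbered libraries of this experiment to each other. Of the other members 1 was higher and 1 lower in each state, against 10.8% of all genes with vehicle and 12.9% with DEX. siJUN raised TSC22D3, and no other member, by 1.13 (SE 0.275, adjusted p = 0.0156) with vehicle, against 6.82% of all genes, and by 0.48 (SE 0.119, adjusted p = 0.0202) with DEX, against 6.57%.

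Both siJUN calls on TSC22D3 lay close to the threshold, and the groups did not overlap. Read numbers with vehicle were low, at 12, 20 and 24 in the siCtl libraries and 41, 39 and 39 in the siJUN libraries. With vehicle, the log2FC was 0.92, 1.14 and 1.13 (adjusted p = 0.0775, 0.0549 and 0.0579) without the first siCtl, the second siCtl or the first siJUN library. With DEX it was 0.50, 0.41, 0.41 and 0.45 (adjusted p = 0.0509, 0.107, 0.113 and 0.0525) without the first or second siCtl or the first or the third siJUN library. Set directly against siFRA1, siJUN gave a higher TSC22D3 level with vehicle (1.10, SE 0.272, adjusted p = 0.0150) and with DEX (0.75, SE 0.120, adjusted p = 0.000447). The first of these was 0.96 (adjusted p = 0.0731) without the second siFRA1 library. In these 2 comparisons 2 members were higher and 1 lower, against 8.47% and 7.7% of all genes.

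No member passed the test of a different DEX response between siRNAs. The interaction was -0.30 (SE 0.342, adjusted p = 1.00) for TSC22D3 with siFRA1 and -0.65 (SE 0.301, adjusted p = 1.00) with siJUN. By edgeR 0% of genes were called in either interaction, while 302 and 378 genes had an unadjusted p under 0.05 and DESeq2 called 2 and 0.

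TSC22D1 (ENSG00000102804.14; GRCh38 13:44432143-44577147, minus strand, 13 transcripts with 12 starts) rose modestly with DEX early on. Its exons share 469 bases with TSC22D1-AS1 on the opposite strand, and the strand setting of the counting is not given, so reads of the pair could not be separated; the antisense gene stayed at 4.67 CPM or less. RefSeq lists 5 windows for TSC22D1, of which 1 held the AP-1 motif TGANTCA (7.71% of all windows) and 1 other held GATA motifs (25% of all windows). A GATA motif was AGATAA in either orientation. The version of it that ends in G, AGATAG, also counted. So did the pair that begins with T, of which the first is TGATAA. The other of that pair was spelled TGATAG. These 2 windows are shown because AP-1 and GATA factors were targeted here, with the matches in capitals.
TSC22D1 13:44474292-44474591, minus strand, AP-1 match at -77: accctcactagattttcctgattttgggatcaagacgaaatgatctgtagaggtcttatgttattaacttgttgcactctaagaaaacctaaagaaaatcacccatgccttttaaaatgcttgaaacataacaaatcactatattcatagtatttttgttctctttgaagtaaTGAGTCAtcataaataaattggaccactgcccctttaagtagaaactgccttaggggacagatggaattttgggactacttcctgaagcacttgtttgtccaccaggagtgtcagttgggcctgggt
TSC22D1 13:44437199-44437498, minus strand, GATA matches at -136 and -77: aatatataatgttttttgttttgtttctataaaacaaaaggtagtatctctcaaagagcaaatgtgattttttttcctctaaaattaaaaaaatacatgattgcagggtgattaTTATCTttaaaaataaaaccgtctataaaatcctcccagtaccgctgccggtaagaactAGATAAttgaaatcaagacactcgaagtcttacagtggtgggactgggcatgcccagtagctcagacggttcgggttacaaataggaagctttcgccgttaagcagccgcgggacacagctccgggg
No knockdown of the 3 targets passed the test for the summed level of TSC22D1 with vehicle. siFRA1 gave a log2FC of -0.00 with vehicle (SE 0.0836, adjusted p = 1.00), siJUN of -0.11 (SE 0.0838, adjusted p = 0.482) and siGATA6 of 0.10 (SE 0.0419, adjusted p = 0.0975). The siGATA6 value did pass with a term for the replicate number.

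In siCtl cells of the GATA6 experiment TSC22D1 lay at 157.9, 153.4 and 153.5 CPM with vehicle and at 202.0, 195.0 and 200.7 CPM with DEX. The libraries did not overlap, and the rise was a log2FC of 0.36 (SE 0.0419, adjusted p = 6.15e-07). In siGATA6 cells it rose by 0.27 (SE 0.0414, adjusted p = 3.49e-05), from 165.8 ± 4.47 to 199.9 ± 8.54 CPM. At 4 h DEX raised it from 150.6 ± 0.767 to 193.2 ± 5.05 CPM in DMSO cells (0.36, SE 0.0857, adjusted p = 0.00590) and from 134.0 ± 7.99 to 180.5 ± 6.97 CPM in BRM014 cells (0.43, SE 0.0858, adjusted p = 0.00231). The difference between these responses did not pass the test, with an interaction of 0.07 (SE 0.121, adjusted p = 1.00).

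At 24 h the DEX libraries of TSC22D1 overlapped the DMSO libraries, 158.5 ± 15.3 against 155.5 ± 9.06 CPM (0.03, SE 0.0856, adjusted p = 0.861). The change between 4 h and 24 h did not pass the test (-0.33, SE 0.121, adjusted p = 0.0999). BRM014 for 24 h lowered TSC22D1 from 161.8, 159.6 and 145.1 CPM to 122.0, 143.1 and 120.4 CPM, a log2FC of -0.28 (SE 0.0857, adjusted p = 0.0176). With scaling by library totals it was -0.14 (adjusted p = 0.181). That call was lost in 4 of 6 fits without 1 library, those without the first or second DMSO (-0.25, adjusted p = 0.0664, and -0.26, adjusted p = 0.0613) or the first or the third BRM014 library (-0.24, adjusted p = 0.0656, and -0.24, adjusted p = 0.0681). In the AP-1 experiment DEX raised TSC22D1 by 0.46, 0.44 and 0.51 in siCtl, siFRA1 and siJUN cells, where the group means went from 171.5 to 235.2, from 171.5 to 233.5 and from 158.6 to 226.1 CPM.

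TSC22D2 (ENSG00000196428.12; GRCh38 3:150408335-150466431, plus strand, 6 transcripts) was the member with the largest DEX response after TSC22D3, and that response was not seen at 24 h. In siCtl cells it lay at 83.66, 75.58 and 77.43 CPM with vehicle and at 191.7, 184.3 and 198.4 CPM after 2 h of DEX (log2FC 1.28, SE 0.0487, adjusted p = 2.68e-15). All DEX libraries stood well above all vehicle libraries. In siGATA6 cells the rise was 1.05 (SE 0.0472, adjusted p = 5.12e-14), from 103.5 ± 3.40 to 214.0 ± 8.79 CPM. siGATA6 itself raised TSC22D2, the opposite of its effect on TSC22D3, by 0.39 with vehicle (SE 0.0490, adjusted p = 3.26e-06) and by 0.16 with DEX (SE 0.0463, adjusted p = 0.0141). The latter call was lost without the second siCtl library (0.14, adjusted p = 0.0724) or the third siGATA6 library (0.13, adjusted p = 0.0794) with DEX.

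At 4 h TSC22D2 lay at 65.45, 71.10 and 73.46 CPM with DMSO and at 103.9, 125.3 and 138.1 CPM with DEX (0.81, SE 0.0875, adjusted p = 6.86e-07). At 24 h it lay at 72.99, 73.90 and 76.20 CPM with DMSO and at 66.17, 62.96 and 69.83 CPM with DEX (-0.17, SE 0.0871, adjusted p = 0.183). The DEX libraries were thus the higher set at 4 h and the lower set at 24 h, and the change of the response was -0.97 (SE 0.123, adjusted p = 3.34e-05). With BRM014 the 4 h rise was 0.70 (SE 0.0873, adjusted p = 1.30e-05), from 70.54 ± 1.31 to 114.4 ± 6.50 CPM, and its difference from that in DMSO cells was -0.11 (SE 0.123, adjusted p = 1.00).

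BRM014 gave TSC22D2 a log2FC of 0.01 at 4 h (SE 0.0871, adjusted p = 0.958) and lowered it at 24 h, to 55.26, 53.56 and 51.35 CPM (-0.48, SE 0.0873, adjusted p = 0.000242). The difference between the times was -0.49 (SE 0.123, adjusted p = 0.0137), or -0.35 (adjusted p = 0.0720) with scaling by library totals. Without the replicate 2 libraries of every group, an alternative chosen after seeing the data, it was -0.51 (adjusted p = 0.163). In the AP-1 experiment TSC22D2 rose with DEX by 1.13, 0.97 and 1.02 in siCtl, siFRA1 and siJUN cells (largest adjusted p = 4.09e-08).

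siFRA1 raised TSC22D2 from 81.75, 92.02 and 98.40 CPM to 138.8, 144.0 and 132.2 CPM with vehicle (0.61, SE 0.0853, adjusted p = 7.21e-05). With DEX it stood at 191.6, 222.4 and 182.4 CPM in siCtl and at 286.3, 286.2 and 240.8 CPM in siFRA1 cells (0.45, SE 0.0832, adjusted p = 0.00115). In both states the siFRA1 libraries were all above the siCtl libraries. siJUN gave 0.20 (SE 0.0857, adjusted p = 0.176) with vehicle and 0.09 (SE 0.0832, adjusted p = 0.637) with DEX. Set directly against siFRA1, siJUN was lower by -0.41 (SE 0.0849, adjusted p = 0.00421) and -0.36 (SE 0.0829, adjusted p = 0.00853). The second of these was -0.32 (adjusted p = 0.0503) without the first siFRA1 library with DEX.

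TSC22D4 (ENSG00000166925.8; GRCh38 7:100463359-100479279, minus strand, 6 transcripts), a regulator of glucose and lipid metabolism in mouse liver, shares 391 exon bases with C7orf61 on the same strand. It rose with DEX in 5 of 9 DEX comparisons. Besides TSC22D3, it was the member whose 4 h DEX response was called smaller with BRM014 than with DMSO. TSC22D4 lay at 57.81, 64.00 and 62.34 CPM with DMSO and at 85.70, 102.5 and 99.48 CPM with DEX for 4 h (0.64, SE 0.113, adjusted p = 0.000306). With BRM014 it lay at 55.92, 57.59 and 59.25 CPM without DEX and at 48.65, 57.16 and 48.10 CPM with DEX (-0.17, SE 0.113, adjusted p = 0.571). The inhibitor libraries with DEX thus overlapped those without, and the interaction was -0.81 (SE 0.160, adjusted p = 0.00554).

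At 24 h the picture for TSC22D4 differed. It lay at 61.47, 66.26 and 64.70 CPM with DMSO and at 77.45, 95.63 and 72.95 CPM with DEX (0.36, SE 0.113, adjusted p = 0.0243), while BRM014 alone gave 61.76, 82.21 and 67.99 CPM against 94.39, 107.4 and 89.59 CPM when DEX was added (0.46, SE 0.113, adjusted p = 0.00752). The interaction was 0.10 (SE 0.159, adjusted p = 0.841). The change of the interaction between 4 h and 24 h was not tested. The 24 h call in DMSO cells was lost without the first (0.32, adjusted p = 0.0901) or the third DMSO library (0.36, adjusted p = 0.0528), the second DEX library (0.23, adjusted p = 0.181) or the replicate 2 libraries of every group (0.26, adjusted p = 0.156). That in BRM014 cells was lost without the second library with DEX and BRM014 (0.38, adjusted p = 0.0560).

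In the GATA6 experiment TSC22D4 rose from 52.4 ± 2.41 to 64.1 ± 3.51 CPM with DEX in siCtl cells (0.29, SE 0.0589, adjusted p = 0.000980) and from 49.0 ± 2.24 to 64.2 ± 3.45 CPM in siGATA6 cells (0.39, SE 0.0580, adjusted p = 2.24e-05). In the AP-1 experiment the DEX values of 0.24, 0.16 and 0.11 did not pass the test (adjusted p = 0.117, 0.537 and 0.643). siFRA1 lowered TSC22D4 from 50.03, 42.23 and 45.70 CPM to 36.43, 35.47 and 34.95 CPM with vehicle (-0.37, SE 0.0822, adjusted p = 0.00561) and by -0.45 with DEX (SE 0.0818, adjusted p = 0.000949). TSC22D4 and TSC22D2 thus differed from siCtl in opposite directions with siFRA1. siJUN stood above siFRA1 by 0.33 (adjusted p = 0.0142) and 0.29 (adjusted p = 0.0320). The first call was lost without the third siFRA1 or the third siJUN library (0.32 and 0.28, adjusted p = 0.0534 in each), and the second without the first or second siFRA1 or the second or the third siJUN library (0.25 to 0.30, adjusted p = 0.149, 0.0874, 0.0724 and 0.110).

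**Figure D2:**
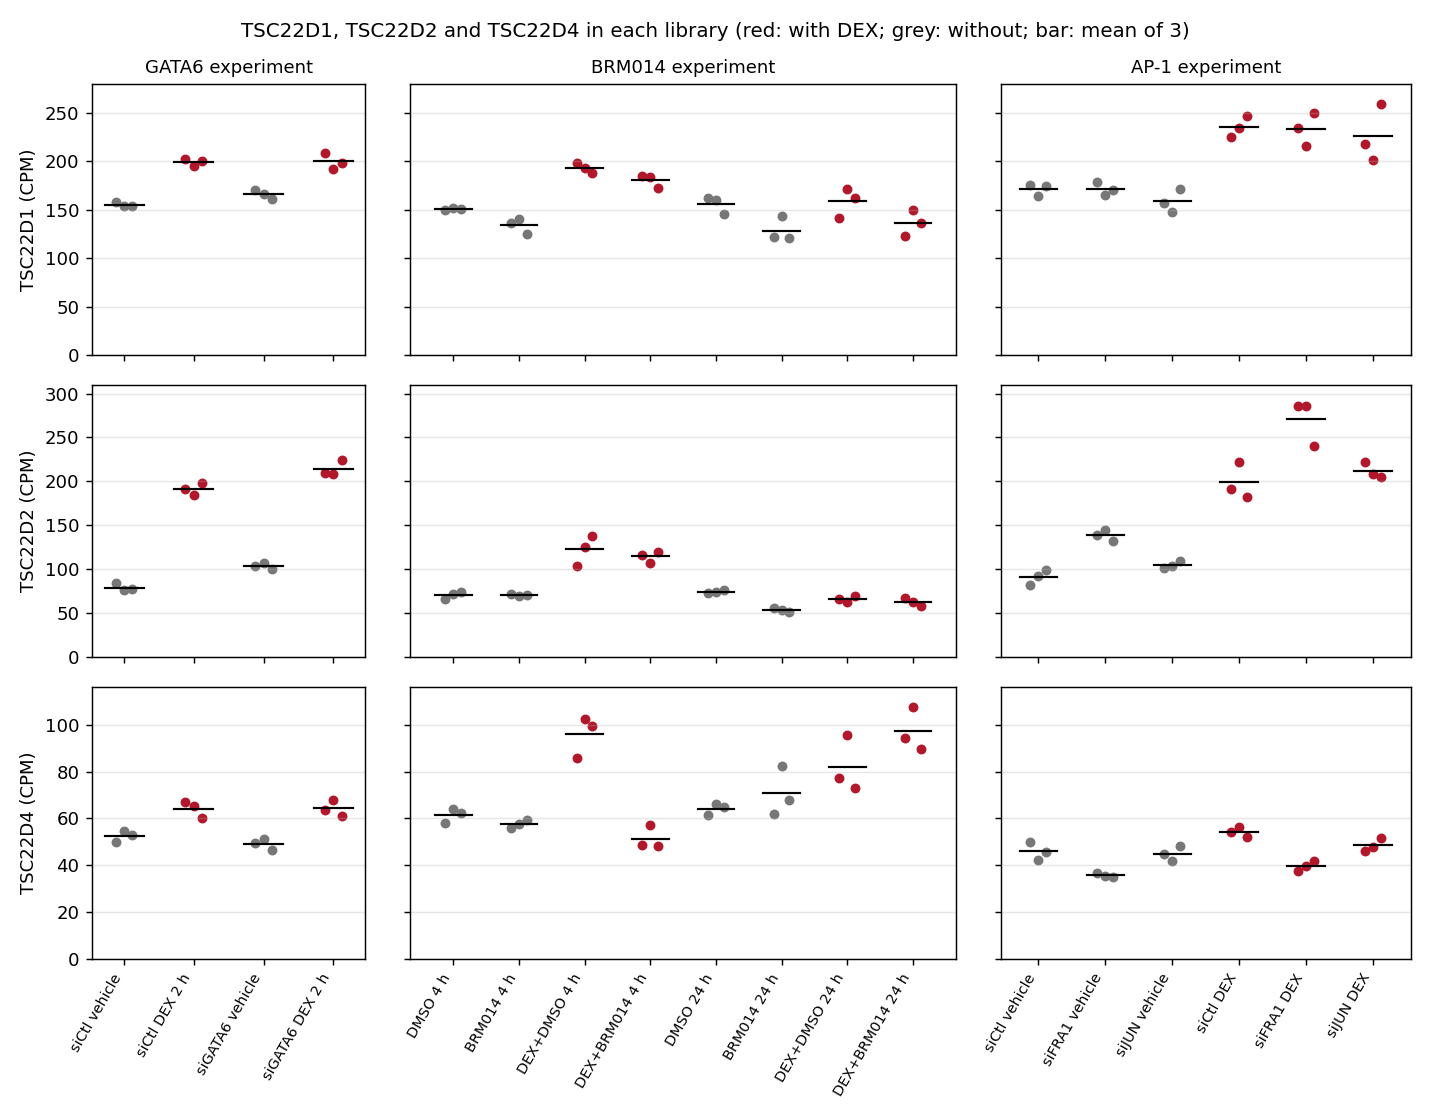
TSC22D1, TSC22D2 and TSC22D4 in each library, in CPM on linear axes that start at 0, by group; points are libraries, red with DEX and grey without, and bars are means of 3. TSC22D2 is high with DEX except at 24 h, and TSC22D4 with DEX and BRM014 at 4 h lies between 48.10 and 57.16 CPM, at or below the DMSO libraries without DEX.

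Over the 29 comparisons TSC22D3 was called higher in 14 and lower in 6, TSC22D2 in 11 and 5, TSC22D4 in 7 and 4, and TSC22D1 in 7 and 1. These comparisons share libraries and include interactions, where higher and lower refer to a response. Between 0% and 35.5% of all genes were called in each. In the 9 DEX comparisons no member was called lower, and TSC22D3 was called higher in 9, TSC22D1 in 7, TSC22D2 in 7 and TSC22D4 in 5. There, between 4.93% and 25.6% of all genes were called in either direction. Over the group means, centred within each experiment, TSC22D3 ranged over 8.04 log2 units, TSC22D2 over 1.58, TSC22D4 over 0.92 and TSC22D1 over 0.65. The siRNA and inhibitor effects on the 3 other members stayed between -0.90 and 0.61.

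**Figure D3:**
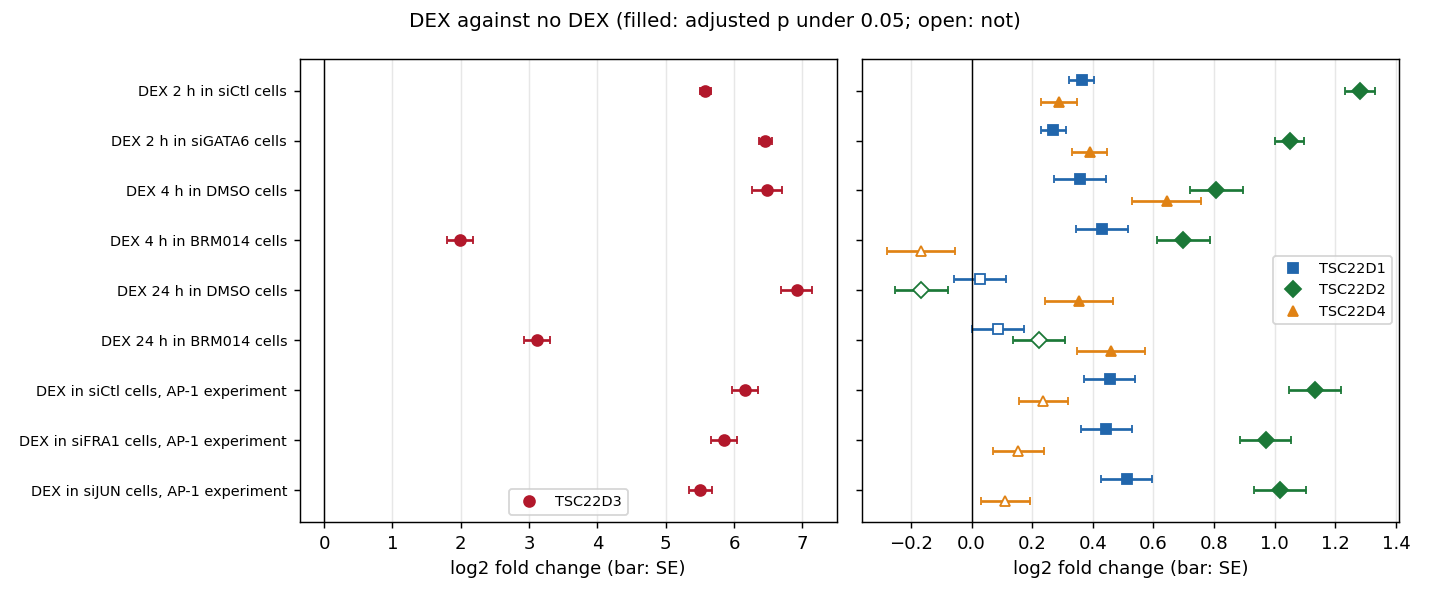
Log2 fold change with DEX against no DEX for TSC22D3 (left) and the other members (right) in the 9 DEX comparisons; bars are SE, filled symbols have an adjusted p under 0.05. TSC22D3 lies between 1.99 and 6.92, with its lowest values in BRM014 cells, and TSC22D1 and TSC22D2 are open at 24 h.

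**Figure D4:**
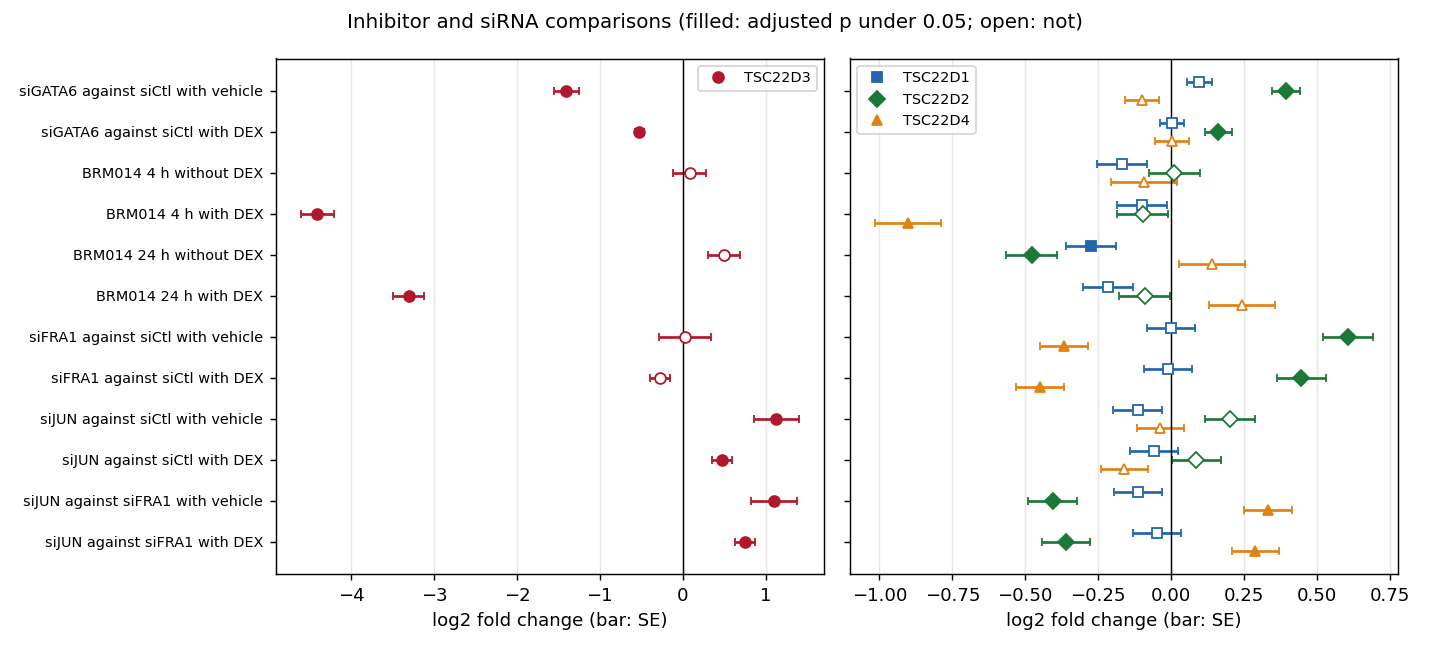
Log2 fold change for BRM014 against DMSO and for the siRNA comparisons, TSC22D3 on the left and the other members on the right; bars are SE, filled symbols have an adjusted p under 0.05. BRM014 with DEX sets TSC22D3 at -4.41 and -3.31, and siFRA1 sets TSC22D2 above and TSC22D4 below 0.

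Because longer transcripts give more reads, levels of different members were compared per kilobase of exon, with the GENCODE exon union of each gene. In the siCtl cells with vehicle of the GATA6 experiment TSC22D1 stood at 18.1 ± 0.300, TSC22D4 at 14.1 ± 0.650, TSC22D2 at 6.76 ± 0.362 and TSC22D3 at 0.689 ± 0.0712 CPM per kilobase. In all 4 control groups without DEX, siCtl of both siRNA experiments and DMSO at both times, the order was the same, and TSC22D3 made up between 0.831% and 2.37% of the summed family level. With DEX its share was 36.6% in siCtl and 27.97% in siGATA6 cells at 2 h, 59.5% in DMSO cells at 4 h and 70.6% at 24 h. With DEX and BRM014 its share was 8.37% at 4 h and 19.2% at 24 h. In the AP-1 experiment the shares with DEX were 29.1% in siCtl, 24.7% in siFRA1 and 37.0% in siJUN cells. Per kilobase TSC22D3 led the family in 4 of 18 groups and came last in 10. With the longest transcript in place of the exon union, the order of all members was the same in 13 of 18 groups. It differed in siGATA6 cells with DEX, in the DEX groups of the AP-1 experiment and in siFRA1 cells with vehicle. The shares also depended on the length used. With the longest transcript, TSC22D3 made up 44.73% in siCtl and 35.45% in siGATA6 cells with DEX at 2 h. In DMSO cells with DEX it then made up 66.57% at 4 h and 76.15% at 24 h.

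**Figure D5:**
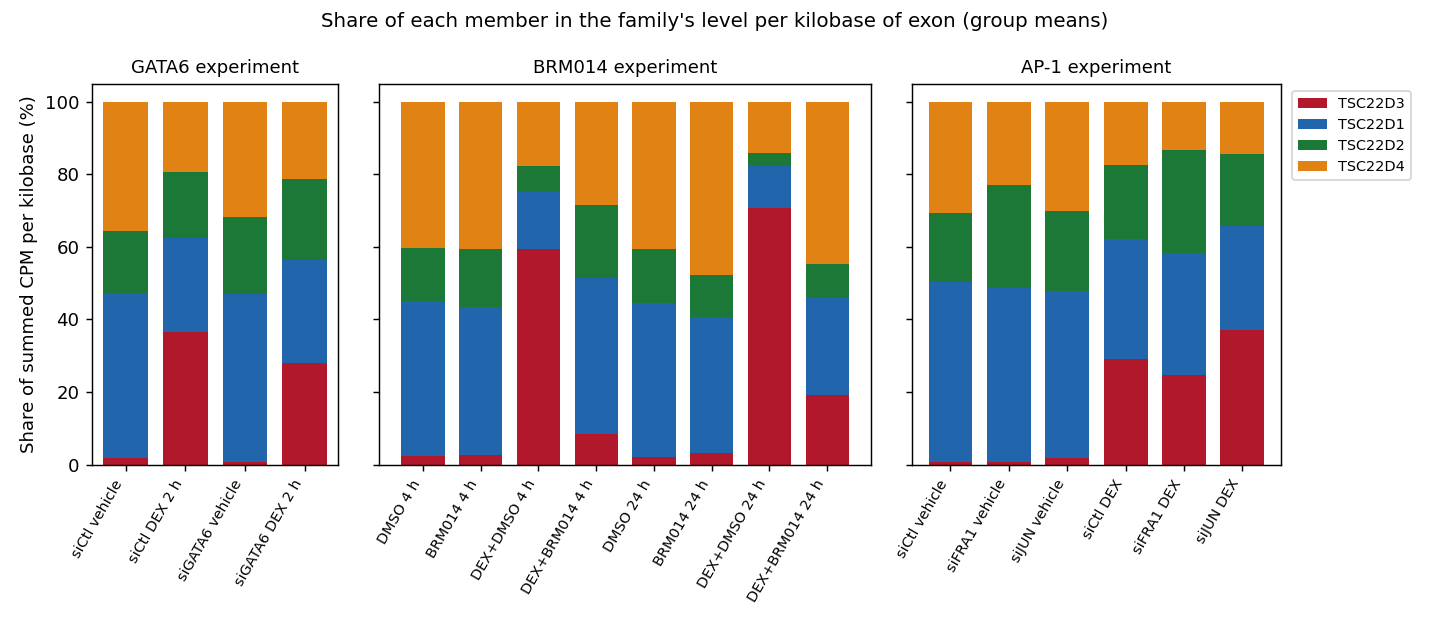
Share of each member in the family's summed CPM per kilobase of exon union, in percent, from group means; each bar is 1 group of 3 libraries and adds to 100. TSC22D3 goes from 2.37% to 59.5% with DEX at 4 h and to 8.37% with DEX and BRM014.

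Over the 18 group means, with 11453 genes compared, the genes whose centred log2 levels lay closest to TSC22D3 were ZBTB16, F3, TFCP2L1, FGD4 and FKBP5. Their root mean square differences were 0.910, 1.07, 1.09, 1.18 and 1.19 log2 units. Ranked by Pearson correlation over the same means, the closest were FOXO1 (0.968), GADD45B (0.964), CNR1 (0.963), PER1 (0.961) and MT1X (0.961), with 0 of 5 shared between the rankings; the points share libraries, and DEX sets most of the range. F3 (tissue factor) rose less at 24 h of DEX (log2FC 3.48) than at 4 h (6.17), a difference of -2.68 (SE 0.601, adjusted p = 0.00623). FKBP5, a co-chaperone of the receptor, rose more at 24 h (10.16) than at 4 h (7.44), a difference of 2.72 (SE 0.363, adjusted p = 6.32e-05). For TSC22D1, compared with 3234 genes that ranged over at least 1 log2 unit, the closest were POLR3C (0.116), RNF115 (0.130) and IQGAP1 (0.131) by root mean square difference, and SLC38A2, TGFBR3 and ERRFI1 by correlation, with 0 of 3 shared. TSC22D1 itself ranged over 0.65 log2 units, so genes that moved as little were not compared and may lie closer. IQGAP1 was not called with DEX at 4 h in DMSO cells (0.47, SE 0.283, adjusted p = 0.396 in edgeR).

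Among 9 genes of the receptor, its chaperones and the FOXO factors, all tested, DEX for 2 h in siCtl cells raised 3 and lowered 1, beside 15.9% of all genes; the list's median log2FC was 0.05 and that of all genes -0.00. FOXO1 rose from 5.42 to 30.9 CPM (2.53, SE 0.112, adjusted p = 3.32e-14) and FOXO3 from 45.7 to 89.3 CPM (0.96, SE 0.0551, adjusted p = 4.76e-12). NR3C1, the receptor itself, was lower, at 181.9 CPM with DEX and 240.7 CPM with vehicle (-0.41, SE 0.0475, adjusted p = 7.44e-07). The third gene that rose was FKBP5. BRM014 reduced the DEX response of 3 of the 9 at 4 h and of 3 at 24 h, beside 2.29% and 6.54% of all genes. They were FKBP5 (-3.83 and -3.37), FOXO1 (-1.96 and -1.46) and FOXO3 (-1.33 and -1.39) at 4 h and 24 h, each with an adjusted p of 0.00178 or less. For NR3C1, BRM014 with DEX at 4 h gave a value that did not pass the test (0.12, SE 0.248, adjusted p = 0.873). siGATA6 with vehicle lowered FOXO4 (-0.77), FOXO1 (-0.77) and FKBP4 (-0.23), 3 of 9 with none higher, beside 23.7%.

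Of 9 genes whose proteins GILZ is known to bind or affect, DEX for 2 h in siCtl cells raised 2 and lowered none, near the 15.9% of all genes called. They were FOS, a subunit of AP-1, from 6.99 to 12.4 CPM (0.83, adjusted p = 9.88e-07), and NRAS by 0.12 (adjusted p = 0.0370). At 4 h, where 12.5% of all genes were called, FOS was the 1 gene called, from 3.49 to 17.9 CPM (2.36, SE 0.261, adjusted p = 9.01e-07), and BRM014 reduced this response by -2.36 (SE 0.360, adjusted p = 0.000437). BRM014 without DEX raised FOS itself at 4 h, to 6.28 CPM (0.85, SE 0.261, adjusted p = 0.0468). At 24 h in DMSO cells, where DEX changed 25.6% of all genes, JUN was lower (-0.64). RELA, the p65 subunit of NF-kappa B, was called in 1 of the 29 comparisons, siFRA1 against siCtl with vehicle (0.22, adjusted p = 0.0283). Of all genes, 10.8% were called there, and between 0% and 35.5% in each of the 29.

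Of 14 genes of the NRBP and WNK pathway, to which the long TSC22 proteins belong, DEX for 2 h raised 2 and lowered 1 in siCtl cells, a share close to the 15.9% of all genes. OXSR1, a kinase that WNK kinases activate, was higher in all 9 DEX comparisons. Between 4.93% and 25.6% of all genes were called in each of them, and the share called in all 9 was not counted. OXSR1 went from 165.0 to 216.3 CPM at 2 h in siCtl cells (0.39, SE 0.0405, adjusted p = 1.13e-07), and its smallest response was 0.20 at 24 h in DMSO cells (adjusted p = 0.0447). STK39, the related kinase SPAK, rose at 4 h in DMSO cells (0.74, SE 0.1003, adjusted p = 1.34e-05), and BRM014 reduced this response by -0.60 (SE 0.141, adjusted p = 0.0205). The cation-chloride cotransporter gene SLC12A7 rose at 2 h (0.22) and 4 h (0.58), and WNK4 (-1.12), SLC12A2 (-0.81) and CAB39L (-0.51) fell at 24 h, where 1 of the 14 was higher and 3 were lower, beside 25.6% of all genes. BRM014 with DEX at 24 h raised 6 and lowered 1 of the 14, with a median of 0.44 beside -0.01 over all genes and 35.5% called.

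Of 14 TGF-beta response genes, DEX for 2 h in siCtl cells raised 3 and lowered 3, beside 15.9% of all genes. TGFBR2, a receptor subunit, rose by 1.56 (from 84.9 to 250.5 CPM), and CCN2, listed as CTGF, by 1.195. The inhibitory SMAD6 (-2.06) and SMAD7 (-1.29) fell. At 24 h in DMSO cells 3 were higher and 7 lower, beside 25.6% of all genes, with a median of -0.43 beside -0.02 over all genes. siFRA1 raised 7 and lowered none with vehicle and with DEX, where 10.8% and 12.9% of all genes were called, with medians of 0.50 and 0.49 beside -0.00 and 0.00 over all genes. Among them were TGFB2 (1.00 and 0.93) and SKIL (0.80 and 0.68), in the comparisons in which TSC22D2 was higher and TSC22D4 lower while TSC22D1 gave -0.00 and -0.01.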

How the data were processed

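The members and gene lists were chosen with earlier results of these data known. The deposited files hold whole-number counts of reads per gene, made by the authors with featureCounts on GRCh38, per the submitters' processing notes; the sources used here do not give the strand setting, annotation or versions. The AP-1 libraries are labelled polyA RNA, whereas the shared protocol describes rRNA depletion, and their file headers carry other library numbers than the deposited files; each file was taken as the sample it is recorded under. No normalization was applied before deposit. Replicates are labelled as biological in the GATA6 and BRM014 experiments; in the AP-1 experiment nothing says that they came from separate cultures, so its p-values measure the spread between samples, which may be technical. Samples of MDA-MB-231 cells were not analysed here.

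Each experiment was fitted alone with edgeR 4.0.16 (R 4.3.3; filterByExpr, TMM scaling, robust quasi-likelihood fit of all its groups), with p-values adjusted by Benjamini-Hochberg over every gene tested and calls at 0.05. SE is the log2 fold change divided by the square root of F. CPM used TMM-scaled totals. The named genes were the 4 members, the 5 genes most like TSC22D3 and the 3 most like TSC22D1 by each measure, the targeted genes, NR3C1, and from each list at most 4 called genes per comparison, ranked by size of change, whose higher group mean reached 1 CPM. Alternatives were DESeq2 1.42.0, library totals, no filter, the compared groups alone, a replicate block and fits without 1 library. The scripts were tested on simulated data. Library totals of 10186607 to 30530736 gave TSC22D3 between 12 and 13324 reads per library. Windows came from RefSeq (GRCh38.p14), where 3 of 4 members matched; TSC22D2 did not. Some genes of the lists are not reported here.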

Additional observations from a re-analysis of the deposited data

Results flagged for a closer look

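In 6 cases a member's response differed between conditions by a test of the difference itself, in edgeR with adjustment over all genes. Of all genes, 0.338% were called for siGATA6 by DEX, and 2.29% and 6.54% for BRM014 by DEX at 4 h and 24 h. The shares were 8.9% for DEX by time, 9.44% for BRM014 by time and 0% for siFRA1 by DEX and for siJUN by DEX. TSC22D3 responded more to DEX in siGATA6 than in siCtl cells, by 0.88 on the log2 scale. In CPM its rise was smaller in siGATA6 cells, 107.8 against 153.3, and the vehicle libraries held few reads. That call was lost in 1 fit without 1 library (adjusted p = 0.0635). BRM014 reduced the DEX response of TSC22D3 by -4.49 at 4 h and by -3.81 at 24 h. It reduced that of TSC22D4 by -0.81 at 4 h. The DEX response of TSC22D2 was lower at 24 h than at 4 h by -0.97. Its response to BRM014 without DEX was lower at 24 h than at 4 h by -0.49. This last call was lost with scaling by library totals and without the replicate 2 libraries of every group. Groups of 3 libraries were too small to look for single outlying libraries.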

How the results depend on the processing

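Of 1496 values of the 4 members under the alternatives, 1438 stayed on their side of the threshold, 37 lost the call and 21 gained one; 40 of the 1438, all uncalled, changed sign. For TSC22D3, scaling by library totals gave BRM014 at 24 h without DEX 0.63 (adjusted p = 0.0115); it moved the median of all genes by 0.147 there and by 0.138 in the BRM014 by time interaction. The replicate block gave that comparison 0.50 (adjusted p = 0.0471) and siFRA1 against siCtl with DEX -0.28 (adjusted p = 0.00147). Without 1 library, TSC22D3 ranged from 0.78 to 0.96 for siGATA6 by DEX, 0.32 to 0.70 for BRM014 at 24 h without DEX, -0.41 to -0.13 for siFRA1 with DEX, 0.92 to 1.35 and 0.41 to 0.57 for siJUN against siCtl with vehicle and DEX, and 0.96 to 1.23 for siJUN against siFRA1 with vehicle. It ranged from 0.27 to 0.60 for DEX by time, 0.24 to 0.62 for BRM014 by time and -0.52 to -0.10 for siFRA1 by DEX, all uncalled. For the other members the block gained calls for TSC22D1 (siGATA6 with vehicle 0.10, BRM014 at 24 h with DEX -0.22, DEX by time -0.33), TSC22D2 (siGATA6 by DEX -0.24, BRM014 by DEX at 24 h 0.39, siJUN with vehicle 0.20) and TSC22D4 (BRM014 at 24 h with DEX 0.25, DEX in siCtl cells of the AP-1 experiment 0.24). Library totals gave TSC22D4 0.27 and 0.33 for BRM014 at 24 h without and with DEX, both called. With the compared groups alone, calls were lost for TSC22D4 (DEX at 24 h 0.37 and 0.45 in DMSO and BRM014 cells, siJUN against siFRA1 0.33 and 0.29) and TSC22D1 (BRM014 at 24 h -0.27). DESeq2 gained TSC22D1 for BRM014 at 24 h with DEX (-0.23) and TSC22D2 for BRM014 by DEX at 24 h (0.39), and the fit without replicate 2 of every group, chosen after seeing the data, lost TSC22D1 for DEX at 4 h (0.37). Without the filter, TSC22D4 was lost for siJUN against siFRA1 with DEX (0.29). The cause was not tested. Same-numbered libraries had correlated deviations above 0.1 in 16 of 18, 54 of 84 and 36 of 45 pairs of the GATA6, BRM014 and AP-1 experiments, and 12 of 12, 21 of 24 and 17 of 18 libraries were nearest to their own number. Replicates 2 and 3 of DEX+BRM014 at 4 h stood closer in these deviations to the 24 h libraries. The correlation of replicate 2 was 0.430, 0.756, 0.734 and 0.725 with replicate 2 of DMSO, BRM014, DEX+DMSO and DEX+BRM014 at 24 h. With replicate 2 of DMSO, BRM014 and DEX+DMSO at 4 h it was 0.146, 0.0312 and 0.118. For replicate 3 the values, in the same order, were 0.438, 0.428, 0.558 and 0.512 at 24 h and 0.119, 0.0334 and 0.219 at 4 h. Replicate 1 gave 0.0774, 0.368, 0.289 and 0.225 at 24 h and 0.209, 0.215 and 0.162 at 4 h. That group enters the 4 h interactions, and the source of the pattern was not tested. Counts of called genes moved over 1.5 times in the following cases. For siGATA6 by DEX the count of 47 became 95 without the filter and 88 with DESeq2, and 30 to 56 without 1 library. With the block, the share called for siGATA6 by DEX rose from 0.338% to 1.81% of genes, and 952 became 1498 for BRM014 by DEX at 24 h and 1294 became 1945 for DEX by time. In the AP-1 experiment the block took 752, 673 and 777 to 1330, 1119 and 1436 for DEX in siCtl, siFRA1 and siJUN cells, 1477 and 1759 to 3357 and 3621 for siFRA1, 932 and 898 to 2550 and 2343 for siJUN, 1157 and 1051 to 2802 and 2706 for siJUN against siFRA1 (with vehicle and with DEX in each), and 0 to 6 in both interactions. With the compared groups alone, 1825 became 2868 for DEX at 4 h in DMSO cells, 3717 became 1788 and 2001 became 884 for DEX at 24 h in DMSO and BRM014 cells, 5169 became 2933 for BRM014 at 24 h with DEX, 952 became 533 for BRM014 by DEX at 24 h, 898 became 536 for siJUN with DEX, and 1157 and 1051 became 684 and 531 for siJUN against siFRA1. Without 1 library, the lowest counts were 751 for BRM014 at 4 h without DEX, 802 and 933 for siFRA1, 444 and 454 for siJUN and 639 and 643 for siJUN against siFRA1.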
